A study of Mus musculus with 6 samples.

Results

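The 10 genes described here belong to the vascular endothelial growth factor (VEGF) and angiopoietin systems and were followed in mouse lung after bleomycin. They are given by name, with no threshold on a measured value, in a list drawn up with earlier results of these data known. They are the VEGF receptors Kdr, Flt1 and Flt4, the co-receptors Nrp1 and Nrp2, the ligand Vegfc, the Tie receptors Tek and Tie1, and the ligands Angpt1 and Angpt2. All 10 had a named probe set, among 12393 genes in all, and together they had 15 probe sets. A probe set is the group of array features that reads a transcript, and the brightest probe set of a gene, by its mean of all 6 arrays, stood for that gene. The study compared lungs of mice given bleomycin, a drug that breaks DNA and leads to lung scarring, with lungs of mice given saline alone. The 3 bleomycin mice (D, E and F) had received 1 mg/kg in 50 µl of saline and the 3 saline mice (A, B and C) the vehicle. All 6 were killed at day 14 and are labelled as wild-type C57BL/6J males, 8 to 10 weeks old. The labels name an oropharyngeal route in one field and an intratracheal route in another, so the route is not settled. Whole pulverised lung without trachea and major airways was measured, so fewer endothelial cells and less RNA per endothelial cell cannot be told apart in any value given here.

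VEGF ligands act on receptor tyrosine kinases of the vessel wall. VEGFR2, encoded by Kdr, carries most of the growth and permeability signal, VEGFR1, encoded by Flt1, binds VEGF-A tightly with weak kinase activity and can act as a decoy, and VEGFR3, encoded by Flt4, serves VEGF-C and is best known in lymphatic endothelium. Neuropilins bind both VEGF ligands and class 3 semaphorins. Angiopoietin 1 keeps vessels quiet through the receptor Tie2, encoded by Tek, while angiopoietin 2 can oppose it, and Tie1 is a partner of Tie2. In the lung, Kdr, Flt1, Tek and Tie1 are known chiefly from endothelial cells, including those of the dense capillary bed of the alveoli.

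Promoter sequences are shown for the receptor genes Kdr and Flt1, whose values passed the test below, and for Tek, whose lower values did not pass it. Each window runs from 250 bases before to 50 bases after the gene's start, in the direction of transcription, from RefSeq on GRCm38.p6. The windows are chr5:75978406-75978705 on the minus strand for Kdr, chr5:147725962-147726261 on the minus strand for Flt1 and chr4:94739039-94739338 on the plus strand for Tek. Capitals mark matches on either strand to GGGCGG, known as the GC box and bound by the transcription factor Sp1. In the Tek window, which has no such match, they mark a GATA factor motif, AGATAA.
Kdr: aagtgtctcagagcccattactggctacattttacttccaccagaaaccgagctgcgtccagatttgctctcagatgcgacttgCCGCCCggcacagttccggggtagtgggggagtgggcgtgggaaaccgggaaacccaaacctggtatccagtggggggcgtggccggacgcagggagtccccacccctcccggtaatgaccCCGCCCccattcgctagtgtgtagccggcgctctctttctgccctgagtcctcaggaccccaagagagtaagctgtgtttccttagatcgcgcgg
Flt1: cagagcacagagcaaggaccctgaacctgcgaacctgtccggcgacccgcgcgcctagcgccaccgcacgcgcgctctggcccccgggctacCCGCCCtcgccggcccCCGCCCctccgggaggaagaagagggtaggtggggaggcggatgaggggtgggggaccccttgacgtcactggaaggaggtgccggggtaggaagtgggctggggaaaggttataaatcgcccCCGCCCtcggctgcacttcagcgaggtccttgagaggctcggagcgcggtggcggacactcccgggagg
Tek: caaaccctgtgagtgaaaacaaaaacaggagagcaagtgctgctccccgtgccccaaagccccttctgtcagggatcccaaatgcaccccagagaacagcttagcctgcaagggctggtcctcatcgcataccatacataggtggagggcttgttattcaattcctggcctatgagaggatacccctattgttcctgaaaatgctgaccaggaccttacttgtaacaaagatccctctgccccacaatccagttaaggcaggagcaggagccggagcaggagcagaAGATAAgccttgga
The Kdr window held 2 GC boxes and the Flt1 window 3, and none of them overlapped another motif searched. The Tek window held 0 GC boxes and 1 GATA motif, at its bases 287 to 292. Of the 8 members with a window, 6 held a GC box, against 35.7% of the 32851 windows of all genes. GC content, which such a motif follows, was 60.7% for Kdr, 70.7% for Flt1 and 52% for Tek, against a median of 52.7% over all windows. AGATAA stood in 1 of the 8 windows (11.2% of all windows), and CCGGAAG, a motif of ETS factors, in 0 of 8 (8.86% of all windows).

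Array values are log2 expression values as the authors deposited them, and each difference is the bleomycin mean minus the saline mean, in log2 units. They were tested with limma, adjusted by the Benjamini-Hochberg method over 22626 probe sets, and adjusted p-values are limma's with a threshold of 0.05. Array medians lay between 7.37 and 7.41, and Sftpc, the surfactant gene of type 2 cells, stood at 14.16 ± 0.17 in bleomycin and 14.36 ± 0.03 in saline lungs (SD, n = 3 each). RNA integrity, read as how far the 3-prime control of Actb exceeded the 5-prime one, was 1.04 to 1.27 log2 units in bleomycin and 1.14 to 1.71 in saline lungs. The same reading for Gapdh was 0.81 to 1.10 in bleomycin lungs and 1.46, 0.88 and 1.39 in saline lungs A, B and C. Saline A and C stood above every bleomycin array on both controls. The part of RNA integrity in the results was not tested. On the first principal component, which held 55.4% of the variance, the scores were 44.3 on bleomycin D, 12.9 on E and 19.8 on F, and the saline arrays lay between -28.6 and -21.4. Saline B goes against its male label, with Xist at 11.40 against 7.23 to 7.88 on the other arrays and the Y-linked gene Eif2s3y at 4.05 against 7.23 to 8.02. Calls or counts that saline B changes are given beside the results.

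Kdr and Flt1 fell in bleomycin lungs, and 0 of the 10 genes rose. Across all genes 5.6% passed the test, 1.9% lower and 3.7% higher after bleomycin, so 2 genes lower of 10 stand against a background of 1.9%. At an unadjusted p of 0.05, 4 of the 10 genes were lower and 2 were higher, against 11% and 11.7% of all genes (22.7% in either direction). The bleomycin arrays lay wholly below the saline arrays for 4 genes (Kdr, Flt1, Nrp1 and Tek) and wholly above them for 2 (Nrp2 and Vegfc). The same holds for 14.6% and 13.3% of all genes, 27.9% together. The median difference over the 10 genes was -0.27, against -0.04 over all genes, and it ran from -0.34 without bleomycin F to -0.17 without bleomycin E.

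**Figure D1:**
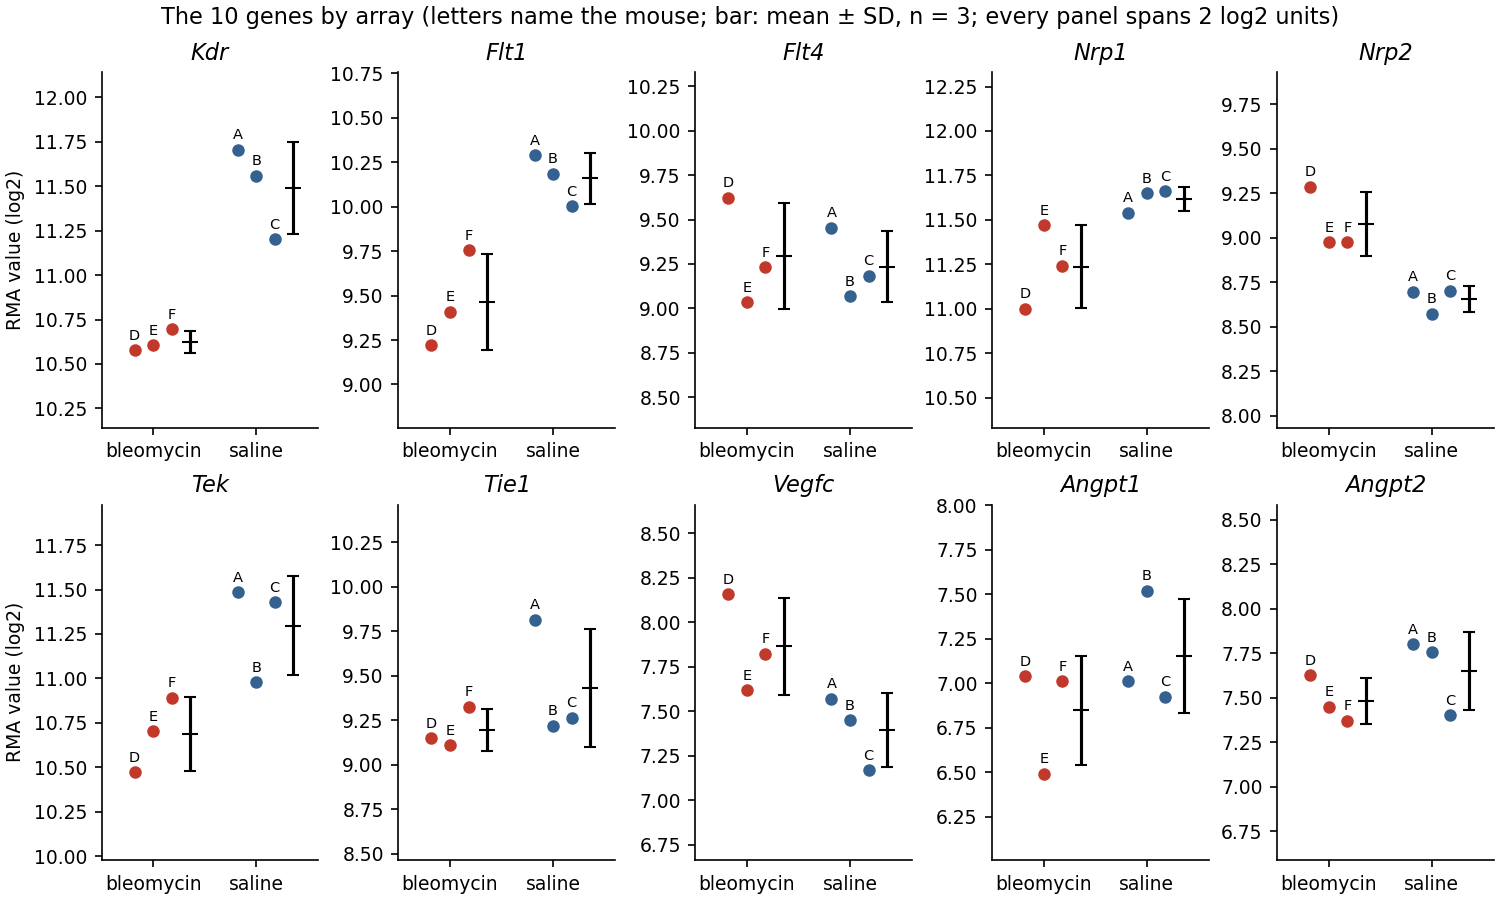
RMA expression values (log2, vertical axes, each spanning 2 units) of the 10 genes on the 3 bleomycin arrays (red, left) and the 3 saline arrays (blue, right), with the mean and SD as black bars. Kdr shows the widest gap between the groups, with bleomycin arrays between 10.58 and 10.70 and saline arrays between 11.20 and 11.70.

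Kdr stood at 10.58, 10.61 and 10.70 in bleomycin lungs D, E and F, against 11.70, 11.56 and 11.20 in saline lungs A, B and C. The bleomycin lungs lay close together and every one was below the lowest saline lung, saline C. Kdr fell by 0.86 ± 0.14 (SE, adjusted p = 0.0148), to 0.55 of the saline level, with a 95% confidence interval of -1.19 to -0.54. The direction was the same with any array left out, between -1.01 and -0.75. The call was lost without bleomycin F (adjusted p = 0.0508) and without saline A (adjusted p = 0.0584), and it held without saline B (adjusted p = 0.0465).

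Flt1 read 9.22, 9.41 and 9.75 in bleomycin lungs D, E and F, against 10.29, 10.18 and 10.00 in saline lungs A, B and C. The groups did not overlap, and bleomycin D was the lowest of all. Flt1 fell by 0.70 ± 0.15 (SE, adjusted p = 0.0417), to 0.617 of the saline level. This call was near the threshold and was lost without bleomycin D (adjusted p = 0.0996), bleomycin E (0.093), saline A (0.115), saline B (0.0954) or saline C (0.0713), with differences of -0.84 to -0.58 over the 6 such fits. Its other probe sets differed by -0.48 (1451756_at, adjusted p = 0.148) and -0.31 (1454037_a_at, adjusted p = 0.407), and only the dimmer of them, 1454037_a_at, overlapped between groups. Which transcript forms of Flt1, soluble or membrane-bound, each of its 3 probe sets reads was not settled here. The mean of the 3 probe sets differed by -0.50 and did not pass (adjusted p = 0.0859).

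Flt4, the receptor of VEGF-C, stood at 9.62, 9.03 and 9.23 in bleomycin lungs D, E and F, against 9.45, 9.07 and 9.18 in saline lungs A, B and C. The groups overlapped, with bleomycin D the highest array and bleomycin E the lowest. The difference was 0.06 ± 0.17 (SE, adjusted p = 0.873), with a 95% confidence interval of -0.33 to 0.45. Its direction is not settled, as it was -0.10 without bleomycin D, -0.024 without saline B and -0.13 on the other probe set, 1421442_at (adjusted p = 0.583). Of 7 measured markers of lymphatic endothelium, the cell type Flt4 is best known from, 0 rose (1 without bleomycin E) and 0 fell. Over all genes 3.7% rose and 1.9% fell. Of the 7 markers, 0 had an unadjusted p under 0.05 in limma, against 22.7% of all genes. The mean level of these markers ran from 7.87 to 8.51 in bleomycin lungs and from 7.73 to 7.89 in saline lungs, with bleomycin D again the highest. The widest difference among them was that of Nts, 1.05 (adjusted p = 0.366), and it was 0.17 without bleomycin D. Prox1, their defining transcription factor, stood at 4.24 ± 0.09 in bleomycin and 4.27 ± 0.08 in saline lungs (SD, n = 3 each), close to the bottom of the scale.

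**Figure D2:**
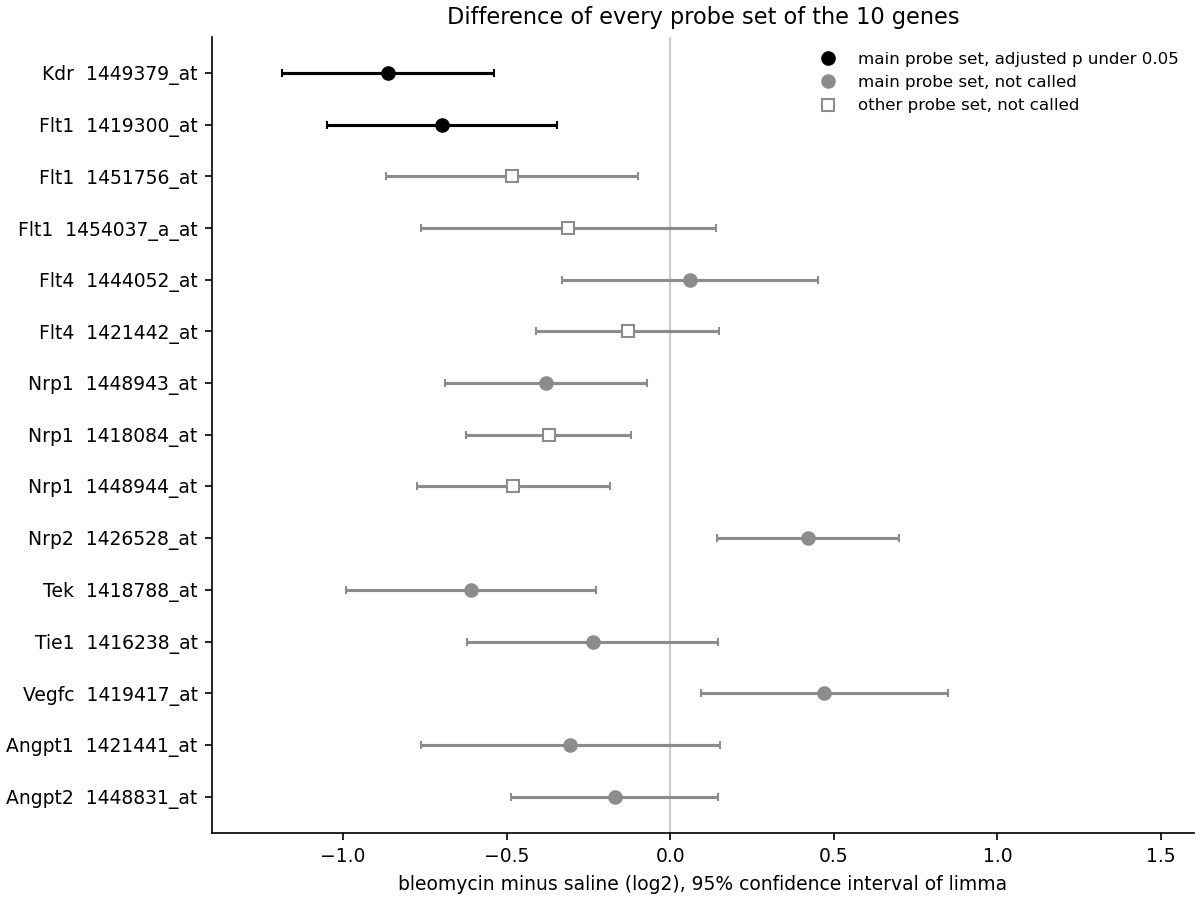
Difference between bleomycin and saline lungs (log2, horizontal axis) with its 95% confidence interval for each of the 15 probe sets of the 10 genes, filled circles being the probe set each gene was read through. The 3 probe sets of Flt1 and the 3 of Nrp1 all lie below 0, those of Flt4 lie on both sides of it, and Nrp2 and Vegfc lie above it.

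The neuropilins pointed in opposite directions, and neither passed the test. Nrp1 stood at 11.00, 11.47 and 11.24 in bleomycin lungs D, E and F, against 11.54, 11.65 and 11.66 in saline lungs A, B and C. All bleomycin lungs were below all saline lungs, with bleomycin E and saline A the nearest to each other. The difference was -0.38 ± 0.14 (SE, adjusted p = 0.155), and the other probe sets gave -0.37 (1418084_at, adjusted p = 0.0988) and -0.48 (1448944_at, adjusted p = 0.0758). The groups were separate on each of the 3 probe sets. When the 3 were averaged before the fit, the difference of -0.41 passed (adjusted p = 0.0375), in a fit where 2.22% of all genes were called lower.

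Nrp2, the neuropilin that also serves VEGF-C, stood at 9.29, 8.97 and 8.97 in bleomycin lungs D, E and F, against 8.70, 8.57 and 8.70 in saline lungs A, B and C. Every bleomycin lung was above every saline lung, with bleomycin D the highest. The difference was 0.42 ± 0.12 (SE, adjusted p = 0.0923), and it was 0.32 without bleomycin D. Macrophage and monocyte markers were higher in the same lungs, with mean levels of 9.75 to 10.09 in bleomycin and 8.41 to 8.81 in saline lungs. Of 9 measured, 5 rose (4 without saline B) and 0 fell, against 3.7% and 1.9% of all genes. Their part in the values of Nrp2, Nrp1 and Vegfc was not tested.

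Partners of the neuropilins gave no call. Of 10 measured class 3 semaphorins, plexins and the adaptor Gipc1, 0 rose and 0 fell in limma, against 3.7% and 1.9% of all genes. At an unadjusted p of 0.05, 1 was higher and 2 were lower, against 11.7% and 11% of all genes. The widest difference was that of the plexin Plxna3, -0.53 ± 0.19 (SE, adjusted p = 0.151). Sema3a, a repulsive guidance ligand of Nrp1, differed by -0.36 (adjusted p = 0.131) with separate groups, and Gipc1, which binds the tail of Nrp1, by 0.38 (adjusted p = 0.103), also with separate groups. Sema3c differed by 0.06 and the shared semaphorin receptor Plxnd1 by 0.05, both with overlapping groups.

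Of the Tie receptors, Tek stood at 10.47, 10.70 and 10.89 in bleomycin lungs D, E and F, against 11.48, 10.98 and 11.43 in saline lungs A, B and C. The groups were separate, with saline B, the array that goes against its label, the nearest to the bleomycin lungs. The difference was -0.61 ± 0.17 (SE, adjusted p = 0.0794), with a 95% confidence interval of -0.99 to -0.23. Without saline B it was -0.77 and passed (adjusted p = 0.0436), in a fit where 0.791% of all genes were called lower.

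Tie1 read 9.15, 9.11 and 9.33 in bleomycin lungs D, E and F, against 9.82, 9.22 and 9.26 in saline lungs A, B and C. The groups overlapped, and the higher saline mean came mostly from saline A. The difference was -0.24 ± 0.17 (SE, adjusted p = 0.458), with a 95% confidence interval of -0.62 to 0.15, and it was -0.046 without saline A.

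Neither angiopoietin passed the test. Angpt1, the activating ligand made by pericytes and other mesenchymal cells, stood at 7.04, 6.49 and 7.01 in bleomycin lungs D, E and F, against 7.01, 7.52 and 6.92 in saline lungs A, B and C. The groups overlapped, and the difference of -0.30 ± 0.20 (SE, adjusted p = 0.423) became -0.12 without saline B and -0.13 without bleomycin E. Angpt2, the context-dependent antagonist stored in endothelial cells, stood at 7.63, 7.45 and 7.37 in bleomycin lungs D, E and F, against 7.80, 7.76 and 7.40 in saline lungs A, B and C. These groups overlapped as well, with a difference of -0.17 ± 0.14 (SE, adjusted p = 0.523) and a 95% confidence interval of -0.49 to 0.15. With 1 array left out, the Angpt2 difference ran from -0.30 without saline C to -0.096 without saline A. Of 12 measured pericyte and smooth muscle markers, 1 rose and 0 fell, against 3.7% and 1.9% of all genes. The one that rose was Rgs5, called on 1 of its 4 probe sets. The mean level of these markers ran from 8.46 to 8.74 in bleomycin and from 8.45 to 8.80 in saline lungs. Without bleomycin F, 0 rose, Rgs5 having an adjusted p of 0.0553, and 1 fell, Notch3 (adjusted p = 0.0377).

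Vegfc, the main growth factor of lymphatic vessels, stood at 8.16, 7.62 and 7.82 in bleomycin lungs D, E and F, against 7.57, 7.45 and 7.17 in saline lungs A, B and C. Every bleomycin lung was above every saline lung, with bleomycin E and saline A the nearest to each other. The difference was 0.47 ± 0.17 (SE, adjusted p = 0.149), 1.39-fold, and it was 0.32 without bleomycin D and 0.36 without saline C.

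None of the other VEGF family ligands passed either. At an unadjusted p of 0.05, 1 of the 4 measured was higher and 1 lower, against 11.7% and 11% of all genes. Vegfa, whose product is the main ligand of Kdr and Flt1, stood at 9.98, 10.00 and 10.19 in bleomycin lungs D, E and F, against 10.59, 10.32 and 10.76 in saline lungs A, B and C. The groups were separate, and the difference was -0.50 ± 0.14 (SE, adjusted p = 0.0797). Its other probe set, 1451959_a_at, differed by -0.43 (adjusted p = 0.119), also with separate groups. Type 1 alveolar epithelial markers, from a cell type known as a source of VEGF-A, were at a mean level of 11.25 to 11.63 in bleomycin and 11.68 to 11.89 in saline lungs. Of 6 measured, 1 fell (Hopx) and 0 rose, against 1.9% and 3.7% of all genes. Hopx was called on 1 of its 2 probe sets and did not pass with any array left out (adjusted p = 0.0822 to 0.16). The part of these markers in the Vegfa values was not tested. Pgf, the placental growth factor that binds Flt1, stood at 6.93, 6.31 and 6.34 in bleomycin lungs D, E and F, against 6.21, 5.95 and 6.02 in saline lungs A, B and C. Its groups were separate too, with a difference of 0.47 ± 0.18 (SE, adjusted p = 0.172) that bleomycin D led. Vegfd and Vegfb differed by -0.05 and -0.01, with overlapping groups, while another probe set of Vegfd, 1438953_at, differed by -0.33 (adjusted p = 0.11) with separate groups.

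**Figure D3:**
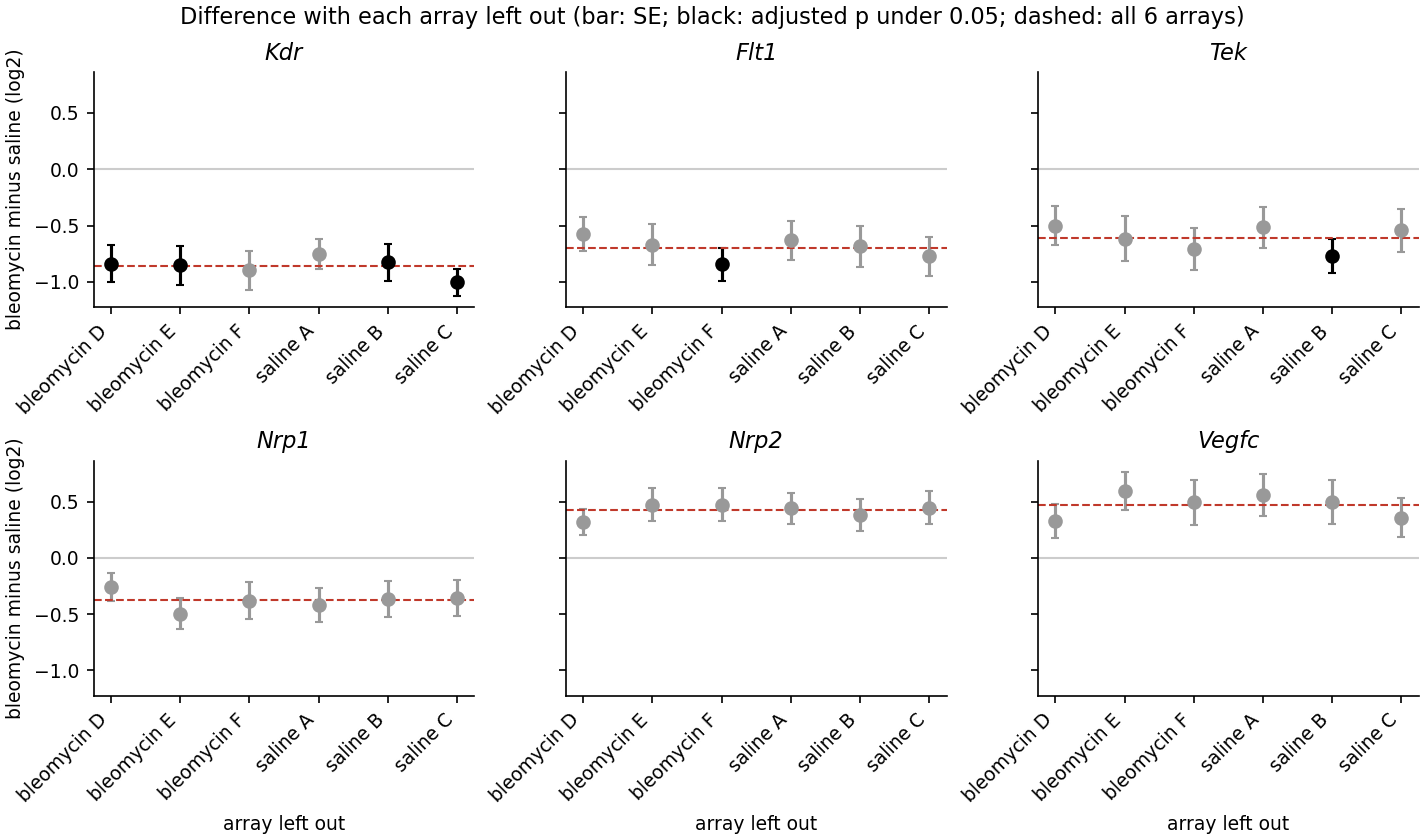
Difference between bleomycin and saline lungs (log2, vertical axis) with its SE for the 6 genes whose groups were separate, with each array named on the horizontal axis left out in turn. Every point of Kdr, Flt1, Tek and Nrp1 lies below 0 and every point of Nrp2 and Vegfc above it. Black points passed an adjusted p of 0.05, and the dashed line is the value with all 6 arrays.

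Bleomycin D stood farthest from the saline mean, in the direction of the gene's difference, for 7 of the 10 genes (Kdr, Flt1, Flt4, Nrp1, Nrp2, Tek and Vegfc). The share of all genes for which this holds was not counted, so the 7 cannot be read as particular to these genes. Bleomycin D was also the bleomycin array farthest along the first principal component of all probe sets. Without bleomycin D, Kdr differed by -0.84 (adjusted p = 0.0402), Flt1 by -0.58, Tek by -0.50 and Nrp1 by -0.26.

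Some general endothelial markers fell in the same lungs. Of 15 measured markers, 3 fell and 0 rose, against 1.9% and 3.7% of all genes. Those shares are also the background of the other lists in this paragraph, with all 6 arrays. The median difference of the 15 markers was -0.39, against -0.04 over all genes. The difference was negative for 12 of the 15. At an unadjusted limma p of 0.05, 8 were lower and 0 higher, against 11% and 11.7% of all genes. Bleomycin arrays lay wholly below saline arrays for 7 markers and wholly above for 1, against 14.6% and 13.3% of all genes. Clec14a, an endothelial lectin, fell by 1.01 ± 0.16 (SE, adjusted p = 0.0122), Ramp2, the co-receptor of adrenomedullin, by 0.87 ± 0.13 (SE, adjusted p = 0.012), and the caveolar protein gene Cavin2 by 0.58 ± 0.12 (SE, adjusted p = 0.035). Clec14a and Ramp2 lost the call only without saline A (adjusted p = 0.0617 and 0.0584). Cavin2 passed only without bleomycin E, and its adjusted p was 0.0759 without bleomycin D, 0.091 without F, and 0.0973, 0.0741 and 0.0985 without saline A, B and C. The widely used markers Pecam1 (-0.13, adjusted p = 0.708) and Cdh5 (-0.34, adjusted p = 0.376) overlapped between groups, and Cd34 differed by 0.33 (adjusted p = 0.285). Of 15 capillary and large-vessel markers, 2 fell (Ednrb and Efnb2) and 1 rose (Ackr1, of venules), with a median of -0.05. Without saline A 0 rose and 0 fell, and the median was 0.048. Ednrb lost its call only there (adjusted p = 0.0581). Efnb2, called on 2 of its 4 probe sets, did not pass with any array left out (adjusted p = 0.0535 to 0.124). Ackr1 passed only without bleomycin D or E, its adjusted p otherwise running from 0.0504 to 0.103. The mean level of the general markers ran from 10.30 to 10.46 in bleomycin lungs and from 10.58 to 10.81 in saline lungs. Heart and skeletal muscle markers, from tissue that also carries vessels, were at a mean of 7.68 to 8.30 in bleomycin and 8.34 to 9.18 in saline lungs, with 1 of 6 falling (Myh7), 2 without saline B, and 0 rising. Epithelial lists had negative medians too, of -0.39 for type 1 alveolar, -0.30 for type 2 alveolar and -0.19 for airway markers. In these lists 1 of 6, 0 of 5 and 1 of 5 measured markers fell, and 0 rose. The airway marker that fell, Cyp2f2 (-0.66, adjusted p = 0.0463 in limma), passed in 1 of the 6 fits with an array left out. Among 10 fibroblast markers, 4 rose and 2 fell (2 and 0 without saline B), with a median of 0.12. The 2 that fell were Inmt (-1.41) and Tcf21 (-0.80), which passed in 3 and 1 of the 6 fits with an array left out. The 4 that rose were Col1a1 (2.10), Lum (1.24), Col3a1 (1.12) and Col1a2 (1.00), which passed in 5, 2, 4 and 2 of those fits. The part of all these markers in the receptor values was not tested.

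**Figure D4:**
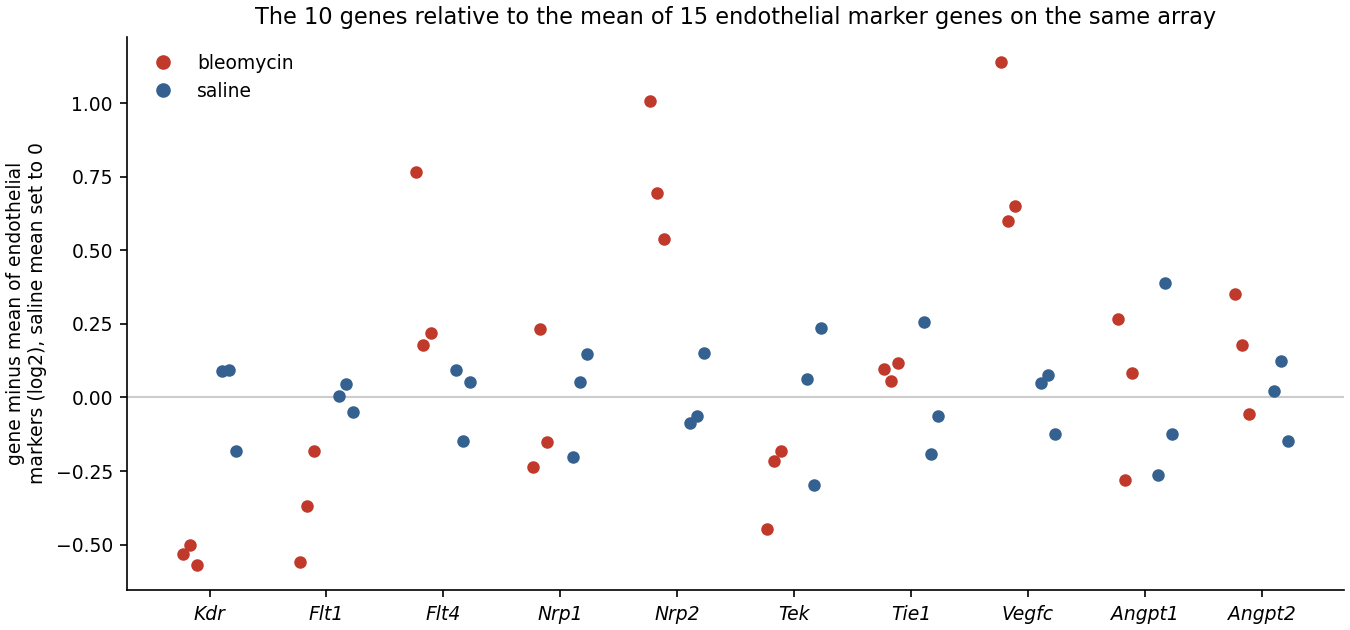
Value of each of the 10 genes minus the mean of 15 general endothelial markers on the same array (log2, vertical axis), with the saline mean of each gene set to 0. Red points are the bleomycin arrays and blue points, to their right, the saline arrays. Kdr and Flt1 stay below the saline arrays, Flt4, Nrp2 and Vegfc stand above them, and Nrp1, Tek, Tie1, Angpt1 and Angpt2 overlap. Centring in this way moved the median difference of all genes from -0.04 to 0.29. The share of all genes with separate groups on this scale was not counted.

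The test was repeated with each array centred on the mean of the 15 general endothelial markers, which moved the median difference of all genes to 0.29. Kdr remained lower on that scale, by 0.54 ± 0.17 (SE, adjusted p = 0.0235), in a fit where 0.791% of all genes were called lower. Before centring, the markers themselves ran from -1.01 (Clec14a) to 0.33 (Cd34). Clec14a and Ramp2 (-0.87) fell at least as far as Kdr (-0.86), and the other markers fell less or did not fall. Centring shifts every gene of an array alike, so that order is kept, and Kdr was not lower than every marker. Per array, Kdr stood 0.27, 0.30 and 0.24 above the marker mean in bleomycin lungs D, E and F, against 0.90, 0.90 and 0.62 in saline lungs A, B and C. Flt1 differed by -0.37 on this scale (adjusted p = 0.112), with separate groups, though the share of all genes with separate groups here was not counted. Tek differed by -0.28 (adjusted p = 0.234) and Nrp1 by -0.05 (adjusted p = 0.828). Nrp2 and Vegfc were called higher, by 0.75 (adjusted p = 0.00362) and 0.80 (adjusted p = 0.00267), but 22.9% of all genes were called higher in that fit. Flt4 differed by 0.39 (adjusted p = 0.122), against 0.06 before centring. Tie1, Angpt1 and Angpt2 differed by 0.09, 0.02 and 0.16 on it, so their sign turned.

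Proteins that act with the receptors were read from a list of 16 measured partners and modifiers. Of these, 1 fell and 1 rose, against 1.9% and 3.7% of all genes, with a median of 0.05. The one that fell, Ptprb, encodes VE-PTP, the endothelial phosphatase that removes phosphate from Tie2 and VEGFR2. It stood at 10.36, 10.58 and 10.51 in bleomycin lungs D, E and F, against 11.44, 11.48 and 11.01 in saline lungs A, B and C, with separate groups. Ptprb fell by 0.83 ± 0.15 (SE, adjusted p = 0.0201). Its call was lost without bleomycin D (adjusted p = 0.0561), bleomycin F (0.0685), saline A (0.0816) or saline B (0.0578). The one that rose, Thbs1, encodes thrombospondin 1, an inhibitor of vessel growth, at 9.53, 8.49 and 9.16 in bleomycin lungs D, E and F, against 7.70, 6.71 and 7.69 in saline lungs A, B and C. Thbs1 rose 3.23-fold (adjusted p = 0.0257), but lost the call without bleomycin D (adjusted p = 0.0637), bleomycin F (0.084) or saline A (0.0715). Angpt4 differed by -0.11 (adjusted p = 0.578), and Svep1, which binds angiopoietins, by 0.31 (adjusted p = 0.395).

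The list counts in this paragraph stand against 3.7% of all genes rising and 1.9% falling, with a median difference of -0.04. Downstream of the receptors, 1 of 24 measured signalling genes rose and 0 fell, with a median of 0.03. This was the kinase gene Prkcb, higher by 0.81 (adjusted p = 0.0495) and called on 1 of its 2 probe sets. Prkcb passed in 1 of the 6 fits with an array left out, that without bleomycin D, its adjusted p otherwise running from 0.0713 to 0.15. Nos3, the endothelial nitric oxide synthase activated by VEGFR2, differed by 0.05 ± 0.22 (SE, adjusted p = 0.916), with a 95% confidence interval of -0.45 to 0.56. Of 16 genes that VEGF is known to induce in endothelium, 1 rose and 2 fell. Rcan1, a feedback inhibitor of calcineurin, rose by 0.82 ± 0.11 (SE, adjusted p = 0.00781) and passed with any array left out. The nuclear receptor Nr4a1 fell by 0.89 (adjusted p = 0.0333) and Esm1, a marker of vessel tip cells, by 0.67 (adjusted p = 0.0498). Esm1 stood low on the scale, at 4.74 ± 0.26 in bleomycin and 5.41 ± 0.18 in saline lungs (SD, n = 3 each). Nr4a1 passed only without bleomycin E or saline C, its adjusted p otherwise running from 0.0789 to 0.112, and Esm1 did not pass with any array left out (adjusted p = 0.0691 to 0.119). Of 18 endothelial transcription factors, 2 fell and 0 rose, with a median of -0.25. These were Klf2, the flow-responsive factor, by 0.91 ± 0.15 (SE, adjusted p = 0.0146), and Gata2, by 0.56 ± 0.11 (SE, adjusted p = 0.0251). Klf2 lost its call when bleomycin F (adjusted p = 0.0619) or saline A (0.0633) was left out. Gata2 was called on 1 of its 2 probe sets and did not pass with any array left out (adjusted p = 0.0513 to 0.0769).

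**Figure D5:**
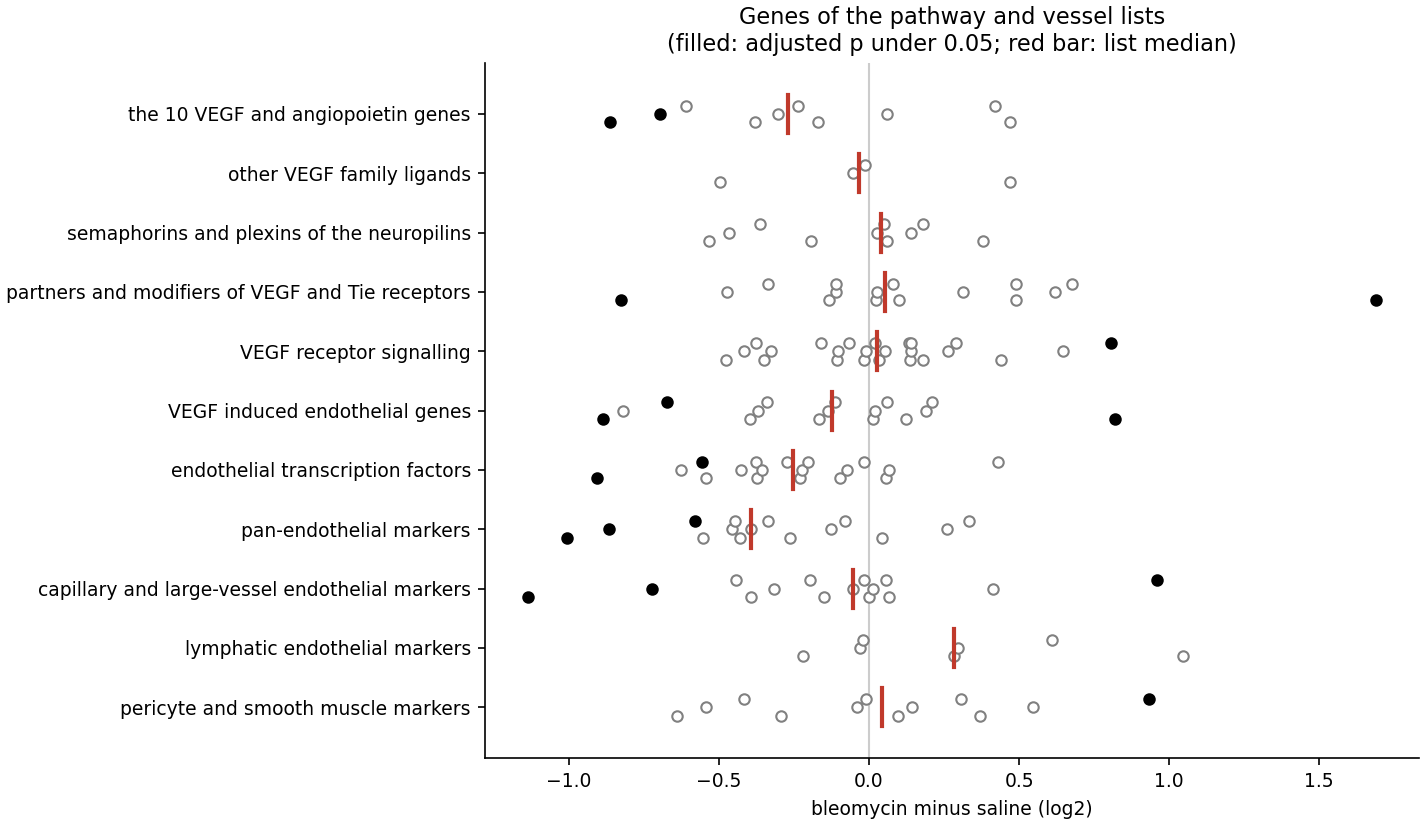
Differences between bleomycin and saline lungs (log2, horizontal axis) for the measured genes of 11 lists, 1 point per gene, filled where the adjusted p was under 0.05, with the list median as a red bar. The 10 genes have a median of -0.27, between the -0.39 of the general endothelial markers and the -0.05 of the capillary and large-vessel markers.

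The 4 genes whose profile over the 6 arrays was nearest to that of Kdr were Tcf21, Cyp39a1, Ccdc85a and Ptprb. Tcf21 is one of the fibroblast markers above. Likeness was the root mean square of the difference between the 2 profiles, each set to 0 at its saline mean, and it was 0.075, 0.077, 0.08 and 0.085 log2 units. The differences of these genes were -0.80, -0.86, -0.81 and -0.83. For Vegfc, the member with the widest positive difference, the nearest were Ldha, Cxcl14, Ptpn1 and Cops2 (0.048 to 0.065 log2 units), with differences of 0.41 to 0.50, and none of these 4 passed the test.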

How the data were processed

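RNA of 6 whole lungs, 1 mouse and 1 Affymetrix MOE430A array each, was measured. The authors made the deposited log2 values per probe set with RMA, quantile normalization included, per the labels' design text. The version of RMA is not given in the sources used here, and detection calls were not used. The log base follows from the largest value, 14.42, which exceeds 11.1, the natural log of the top reading of a 16-bit scanner. Arrays have no read depth, and their number limits the precision. Of 22690 probe sets, 64 controls were left out. Names came from GEO's platform annotation, updated by Entrez ID through RefSeq (GRCm38.p6) for 20351 probe sets. Only probe sets with 1 symbol (20380) were named.

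Bleomycin was compared with saline in limma 3.58.1 under R 4.3.3 (lmFit, eBayes, no covariates). Intervals are limma's, at 95%. On simulated data for this comparison with 22626 probe sets, 76 of 100 changes of 1 log2 unit and 97 of 100 of 2 were recovered, with 9 false calls among 182. Changes under 1 log2 unit, as all differences of the 10 genes were, were not simulated. Figures used Python 3.11.15 and matplotlib 3.10.9.

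The members, lists and tests were chosen with earlier results of these data known. Besides the members, up to 4 called genes with the widest differences were named per list, or the widest where none passed, and any measured gene among ligands, semaphorins, plexins and partners. Pecam1, Cdh5, Cd34, Nos3, Prox1, Sftpc, Xist and Eif2s3y fall outside that rule and were chosen after their values were seen. The same holds for Notch3, Col1a2 and, as a fibroblast marker, Tcf21. Alternatives were a filter on dim probe sets, a trended robust prior, array weights, 3 other scalings, 2 other choices of probe set, a threshold of 0.01 and each array left out. List counts without single arrays were added after seeing the data.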

Additional observations from a re-analysis of the deposited data

How the results depend on the processing

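No paired analysis was possible because no letter names an array in both groups. Of the alternatives, leaving out dim probe sets, a trended robust prior, ribosomal protein genes as the scale, a second quantile normalization and the most variable probe set left Kdr and Flt1 as the genes called lower. With array weights 1 of the 10 genes was lower (Kdr), and at an adjusted p of 0.01 the count was 0, with 143 genes higher and 20 lower in all. Averaging the probe sets of a gene left 2 lower, Kdr and Nrp1 in place of Flt1. With 1 array left out, 0 to 2 of the 10 were lower, and over all genes 163 to 385 were higher and 22 to 165 lower, in fits with fewer samples. None of the 10 was called lower without saline A. Centring on endothelial markers, which adds the same amount to every gene of an array, gave 2 of the 10 higher, 1 lower, and 2832 genes higher and 98 lower in all. There the sign turned for Tie1 (0.0902), Angpt1 (0.023) and Angpt2 (0.16), while Flt4 turned with the mean of its probe sets (-0.035) and ran from -0.10 to 0.19 with 1 array left out. The cause of the other changes was not tested. Of the general endothelial markers, 0 were lower without saline A, 2 without bleomycin D, saline B or saline C, and 3 without bleomycin E or F, against 3 with all arrays. The 3 without bleomycin F were not the same 3, as Cavin2 did not pass there (adjusted p = 0.091 in limma). Signal over background could not be examined.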
